A study of Gallus gallus with 2 samples.

Results

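The genes described here are the cyclins, the cyclin-dependent kinases (CDKs), the CDK inhibitors and the mitotic and checkpoint kinases of the chicken germinal disc. The rule that picks them reads gene symbols only, but the family was proposed with earlier results of these data known. A gene was taken when its single annotated symbol began with CCN, a letter and a digit, with CDK and a digit, with CDKN, AURK or BUB, with CDC and a digit other than CDC42, or with PLK or NEK and a digit, or when it was WEE1, WEE2, PKMYT1, CHEK1 or CHEK2. The rule found 81 of 13008 genes on the array, with 162 probe sets. CDK2, CDK4, CCNB2, CDC25B, CDC25C, AURKA, AURKC and PKMYT1 were not among them, so their signals were not analysed here. The prefixes also took in genes that work outside the cell cycle, such as CDC123 and CDC73, and these are described by what they do.

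RNA came from the germinal disc region of maturing oocytes, the patch of yolk surface that holds the oocyte nucleus, taken from yellow follicles ranked F5 to F7 of laying hens at 25 weeks of age. The Bx hens had their bursa of Fabricius, where birds form their B cells, removed by surgery on day 17 to 18 of incubation, and are described as deficient in IgY. The control group carries the label Control for the surgical operation, and the labels do not say whether it had a sham operation. Each group was 1 pool of 9 discs from 3 birds on 1 array, so there was no replicate of either group, no test across samples and no p-value. Differences between birds were not measured.

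Cyclins are the regulatory subunits that switch on CDKs, and the pair phosphorylates the proteins that carry a cell through DNA replication and division. A maturing oocyte is held in the prophase of meiosis, with its cyclin B and CDK1 kept inactive by WEE-family kinases until a CDC25 phosphatase releases them. The granulosa cells that surround the oocyte, in contrast, divide as the follicle grows. The array reads RNA of all cells in the disc, and in such bulk samples fewer cells of a type and less RNA per cell cannot be told apart.

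Signals are the linear MAS5 intensities that the authors deposited, in arbitrary units. Where several probe sets named a gene, the one with the highest mean log2 signal, called the brightest, stood for it. A gene was measured when this probe set lay above a background floor on both arrays, 42.6 for control and 36.4 for Bx, which was the 95th percentile of the non-chicken probe sets. Of the 81 genes, 78 were measured. CDK3, CDK18 and CDKN2B were not.

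As a group these genes differed little between the pools. The log2 ratio of Bx over control had a median of 0.04 over the 78 measured genes, against 0.01 over all 10168 measured genes of the array. The lower and upper quartiles were -0.07 and 0.15 for the cell cycle genes and -0.14 and 0.17 for all genes. In all, 63 of the 78 (80.8%) were within 1.2-fold, against 71.2% of all genes. Of the 78 genes, 2 (CCNE2 and NEK4) exceeded control by 1.5-fold or more in Bx discs, where 4.11% of all measured genes did. At least 1.5-fold lower was 1 gene, NEK5, where 3.63% of all genes were. None of the 78 reached 2-fold in either direction, and 1.06% of all genes did. Both shares of 1.5-fold members were below those of the whole array, but these shares and that within 1.2-fold are not matched for brightness. As given below, many of the cell cycle genes were bright, and few bright genes were past 1.5-fold. The lower shares are therefore not read as particular to the cell cycle genes. By direction alone, 47 of the 78 had the higher signal in Bx discs (60.3%), against 52.4% of all genes.

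The scatter of a ratio depended on brightness, so each value is read against genes of like signal. In 4 equal groups of the measured genes, from the dimmest to the brightest, the SD of the log2 ratio between probe sets of 1 gene was 0.45, 0.38, 0.31 and 0.26. Genes were grouped by their brightest probe set, but this SD also took in their dimmer ones, so it can overstate the error of the brightest. The SD of the gene values over all genes was 0.49, 0.31, 0.21 and 0.15. It holds error and any real differences together. The cell cycle genes lay to the bright side, with 10, 16, 20 and 32 in those groups. In the brightest group, with mean signals from 1990, no cell cycle gene was past 1.5-fold, and 0.354% of all genes were. The next group also had none, against 1.49% of all genes. In these groups the higher signal was in Bx discs for 17 of 32 cell cycle genes (47.4% of all genes) and for 17 of 20 (53.9% of all genes). The second-dimmest group held CCNE2 and NEK4 among its 16 cell cycle genes, and 6.22% of all its genes were past 1.5-fold in either direction. In the dimmest group 1 of 10 was past 1.5-fold, NEK5, against 22.9% of all genes there. The higher signal was in Bx discs for 9 of 16 in the second-dimmest group (57.2% of all genes) and 4 of 10 in the dimmest (51.1%).

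**Figure D1:**
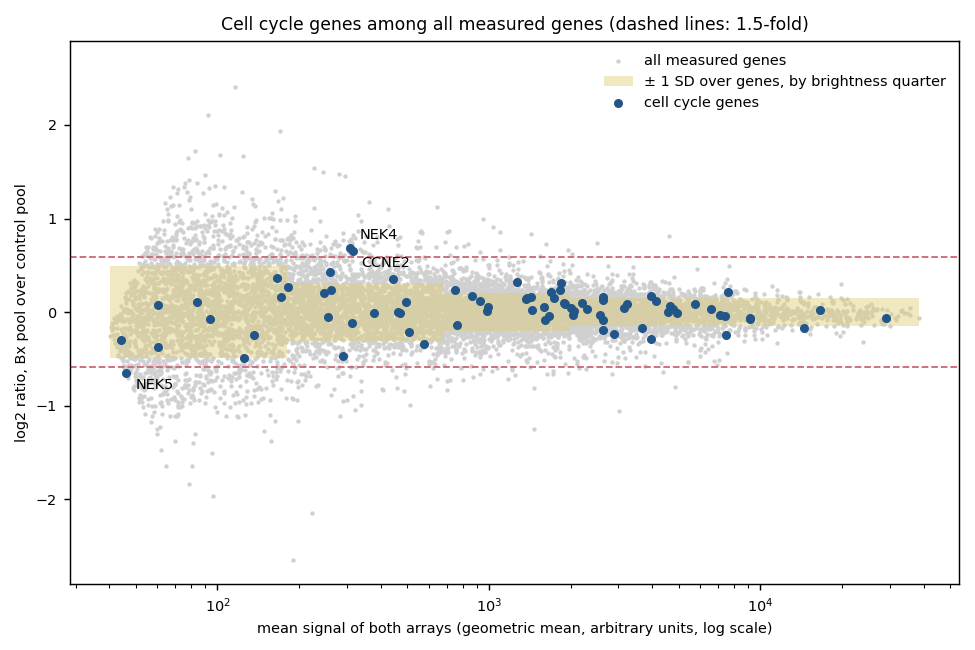
Log2 ratio of the Bx over the control pool against the geometric mean signal of both arrays for every measured gene (grey, 10168 genes) and the 78 cell cycle genes (blue), with the SD over genes in each of the 4 brightness groups as a band. NEK4 and CCNE2 lie just above the upper 1.5-fold line and NEK5 just below the lower one, and the bright cell cycle genes sit close to 0.

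The A and B cyclins, which drive entry into and passage through division, had nearly equal signals in both pools. CCNB1, cyclin B1, the partner of CDK1, had a signal of 29612 in control and 28371 in Bx discs. CCNA1, the A cyclin best known from germ cells of mice, had 16474 and 16682. CCNA2, the A cyclin of dividing somatic cells, had 3873 and 3457, a log2 ratio of -0.16. CCNB3, a B-type cyclin with a part in meiosis in mice, had 2484 and 2788, a log2 ratio of 0.17. Each of these 4 values came from the only probe set of the gene above the floor. All 4 differences were smaller than the SD of 0.26 between probe sets for genes of this brightness. CCNA2 and CCNB3 exceeded the SD of 0.15 over all genes there, and CCNB1 and CCNA1 did not. The group had 2 genes higher and 2 lower, with a median log2 ratio of -0.02.

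CDK1, the kinase that starts M phase, went from 7057 in control to 8183 in Bx discs, a log2 ratio of 0.21 on 1 probe set. Its opposing regulators were spread on both sides of 0. CDC25A, the phosphatase that activates CDKs, had 1684 and 1990 (log2 ratio 0.24). WEE1, which adds the inhibitory phosphate to CDK1, had 8136 and 6877 (-0.24). WEE2, the oocyte form of that kinase in mammals, had 478 and 517 (0.11). The checkpoint kinases that act on CDC25 after DNA damage were slightly higher on every probe set measured. CHEK1 had 3946 and 4293 on the brightest of 3 probe sets, whose mean log2 ratio was 0.24 ± 0.17 (SD), and CHEK2 had 978 and 1013 and a mean of 0.08 ± 0.04 over 2. None of these differences exceeded the SD between probe sets for genes of its brightness. On the brightest probe set, CDK1, CDC25A and WEE1 exceeded the SD over all genes of their brightness, and WEE2, CHEK1 and CHEK2 did not.

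The D cyclins answer growth signals at the start of the cycle and pair with CDK4 and CDK6. CCND2 gave the closest match, with 4561 in control and 4568 in Bx discs, and over its 3 probe sets the log2 ratio averaged 0.01 ± 0.02 (SD). CCND1 had 2125 and 2280, and CCND3 1980 and 2040. CDK6 had 796 and 726 on its brightest probe set. Of 4 probe sets above the floor 1 was higher and 3 were lower, with a mean of -0.08 ± 0.54. The G cyclins are linked to stress and to leaving the cycle. On their brightest probe sets they were also flat, with CCNG1 at 4930 and 4887 and CCNG2 at 6517 and 6669. All 5 of these D and G cyclins were within 1.1-fold on their brightest probe sets. The other probe set of CCNG2 had 4414 and 4961, a log2 ratio of 0.17.

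The E cyclins, which bind CDK2 and start DNA replication, held the largest difference among the cyclins. CCNE2, cyclin E2, had a signal of 250.8 in control and 394 in Bx discs, 1.57-fold higher (log2 ratio 0.65). The other probe set of CCNE2, designed from the same sequence cluster, had 271 and 342, a log2 ratio of 0.33. Both were higher in the Bx pool, with a mean log2 ratio of 0.49 ± 0.23 (SD, 2 probe sets), so the mean over probe sets was short of 1.5-fold. CCNE1, cyclin E1, had 886 and 964 on its brightest probe set and 841 and 752 on the next, with a mean of -0.02 ± 0.20. The mean for CCNE2 was larger than the SD between its own probe sets, and that for CCNE1 was smaller. Each SD comes from 2 probe sets on the same 2 arrays, so it does not measure the error of a difference between the pools. Whether the difference in CCNE2 was larger than that in CCNE1 was not tested.

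**Figure D2:**
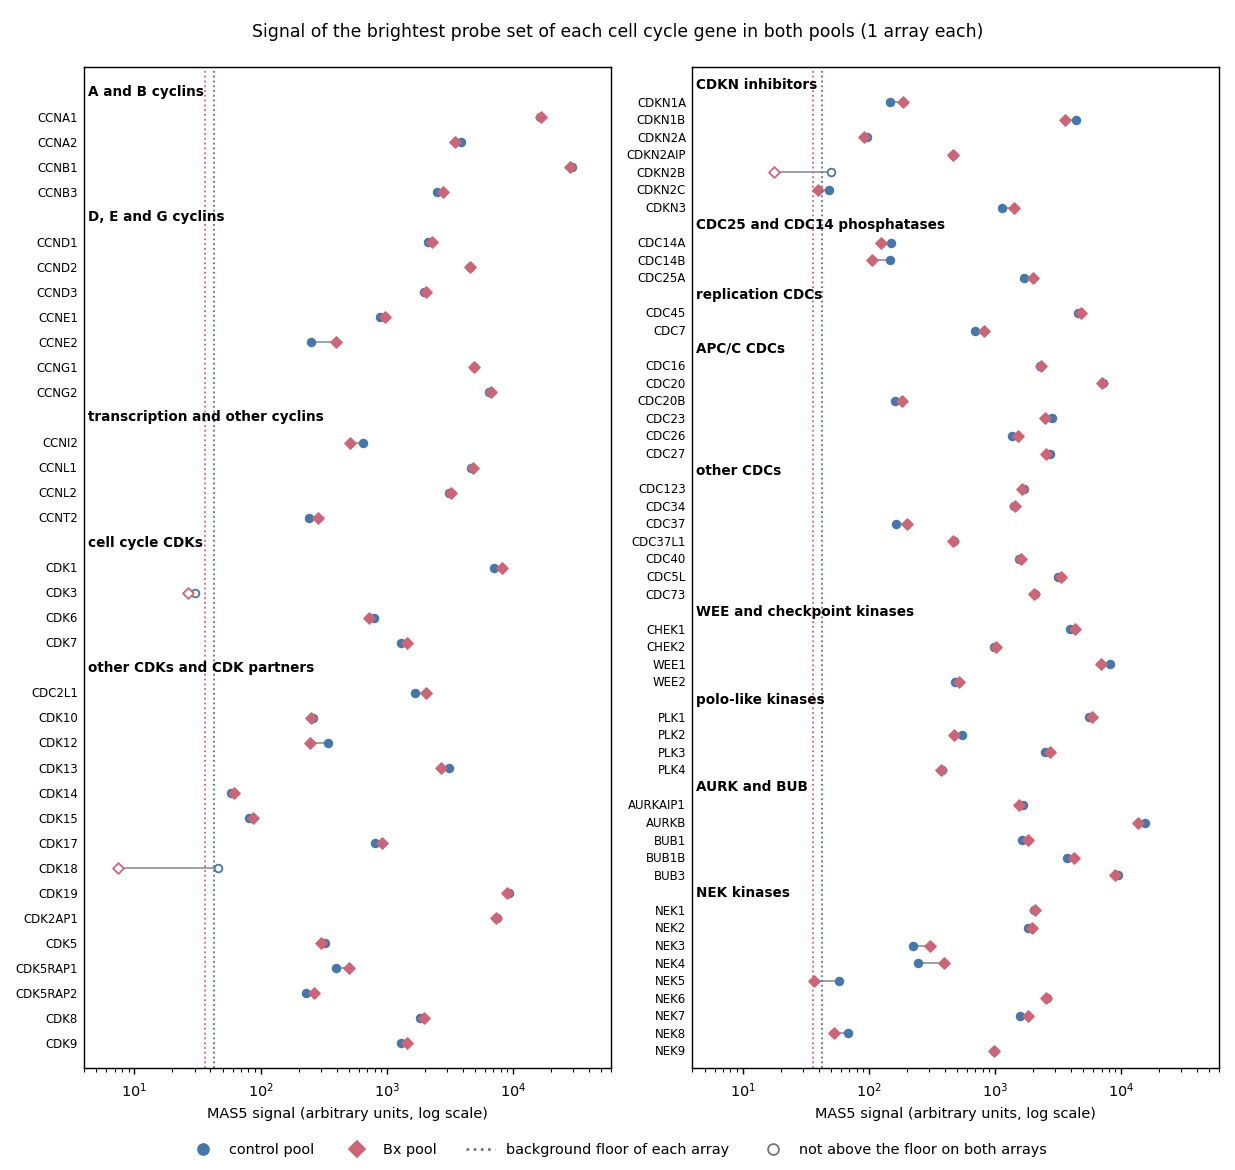
MAS5 signal of the brightest probe set of each of the 81 cell cycle genes in the control pool (circles) and the Bx pool (diamonds) on a log axis, by role of the gene, with dotted lines at the background floor of each array. Most pairs of points overlap, CCNE2, NEK4 and NEK5 are among the pairs that stand visibly apart, and the open symbols of CDK3, CDK18 and CDKN2B mark genes not above the floor on both arrays.

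Among the CDK inhibitors, 3 of 6 measured genes were higher and 3 lower in the Bx pool, with a median log2 ratio of -0.04. CDKN1B, the p27 inhibitor that holds cells out of the cycle, had 4373 in control and 3587 in Bx discs (log2 ratio -0.29) on its brightest probe set and 2388 and 2380 on the other. CDKN1A, the p21 inhibitor induced by p53, had 146 and 188 (0.36). CDKN3, a phosphatase that removes the activating phosphate from CDKs, had 1134 and 1419 on the brighter of 2 probe sets, which averaged a log2 ratio of 0.26 ± 0.09 (SD). CDKN2A, CDKN2B and CDKN2C were dim. CDKN2A had 96.2 and 91.4, and CDKN2C had 48.7 and 39.7, close to the floors. CDKN2B, the neighbour of CDKN2A in the chicken RefSeq annotation, had 50.4 in the control and was under the floor in the Bx pool (17.6), at least 1.38-fold lower. CDKN2AIP, a protein that binds the CDKN2A product in mammals, had 463 in both pools.

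CDK7 forms the CDK-activating kinase with cyclin H and MNAT1. CDK7 and cyclin H were a little higher in the Bx pool, and MNAT1 was nearly equal. CDK7 had 1307 in control and 1450 in Bx discs (log2 ratio 0.15). Its cyclin CCNH had 896 and 1044 (0.22), with a mean log2 ratio of 0.33 ± 0.16 (SD) over 2 probe sets. MNAT1 had 678 and 687 (0.02). On the brightest probe sets, CDK7, CCNH and MNAT1 all differed by less than the SD of 0.31 between probe sets for genes of their brightness. CDK9 with a T cyclin lets RNA polymerase II elongate. CDK9 had 1306 and 1436 (log2 ratio 0.14), and CCNT2 had 241 and 284 (0.23) on its brightest probe set and 157 and 154 on the next.

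CDK12 and CDK13, which phosphorylate the tail of RNA polymerase II with cyclin K, were lower in the Bx pool together with that cyclin. CDK12 had 341 in control and 246 in Bx discs, a log2 ratio of -0.47 on its only probe set and the lowest ratio among the CDKs measured. CDK13 had 3139 and 2669 (-0.23) on its brightest probe set. CCNK had 3598 and 3039 (-0.24), with a mean of -0.16 ± 0.15 (SD) over 3 probe sets of which 1 was higher. Of these, only CDK12 differed by more than the SD between probe sets for genes of its brightness, which was 0.38. On the brightest probe set, CDK12, CDK13 and CCNK each exceeded the smaller SD over all genes of their brightness. The Mediator kinases CDK8 and CDK19 were nearly equal in both pools. On the brightest probe set CDK8 had 1845 and 1956 (0.08) and CDK19 had 9370 and 8922 (-0.07). The other probe set of CDK19 had 4187 and 4202 (0.005), and that of CDK8 was higher (0.21). On the brightest probe sets, both differences were smaller than either SD for genes of their brightness. CCNC, the cyclin of both kinases, had 3558 and 3375 on the brightest of 3 probe sets, which were all lower and averaged -0.28 ± 0.37.

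CDC2L1, which RefSeq lists with the synonym CDK11A, belongs to a kinase of splicing and transcription that pairs with the L cyclins. Its 2 brightest probe sets were higher in the Bx pool (1660 and 2059 on the first, 1053 and 1557 on the second), and its 2 dimmer ones were lower, for a mean log2 ratio of 0.15 ± 0.36 (SD, 4 probe sets). CCNL1 had 4684 and 4806 on its brightest probe set. Its dimmest, with 52.6 and 109, had a log2 ratio of 1.05, and its mean over 3 was 0.39 ± 0.57. CCNL2 had 3110 and 3203. CCNI2 had 652 and 513 on one probe set and 182 and 255 on the other, which averaged 0.07 ± 0.59.

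The remaining CDKs ranged over dim and moderate signals. CDK5, a kinase best known from neurons, had 326 in control and 300.6 in Bx discs, CDK10 259 and 251, CDK17 814 and 915, CDK14 58.6 and 62.0, and CDK15 81.1 and 87.2. CDK18 had 46.2 in the control and was under the floor in the Bx pool, at least 1.27-fold lower, and CDK3 was under the floor in both pools. CDK5RAP2, a centrosome protein, was higher on all 3 probe sets, with a mean log2 ratio of 0.15 ± 0.09 (SD). CDK5RAP1, a tRNA-modifying enzyme of mitochondria in mammals, had 393 and 503 on one probe set and 90.0 and 86.0 on the other. CDK2AP1, a CDK2-binding protein, had 7525 and 7297. Of the 14 measured genes of this group with CDK8, CDK9, CDK12, CDK13, CDK19 and CDC2L1, 8 were higher and 6 lower.

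**Figure D3:**
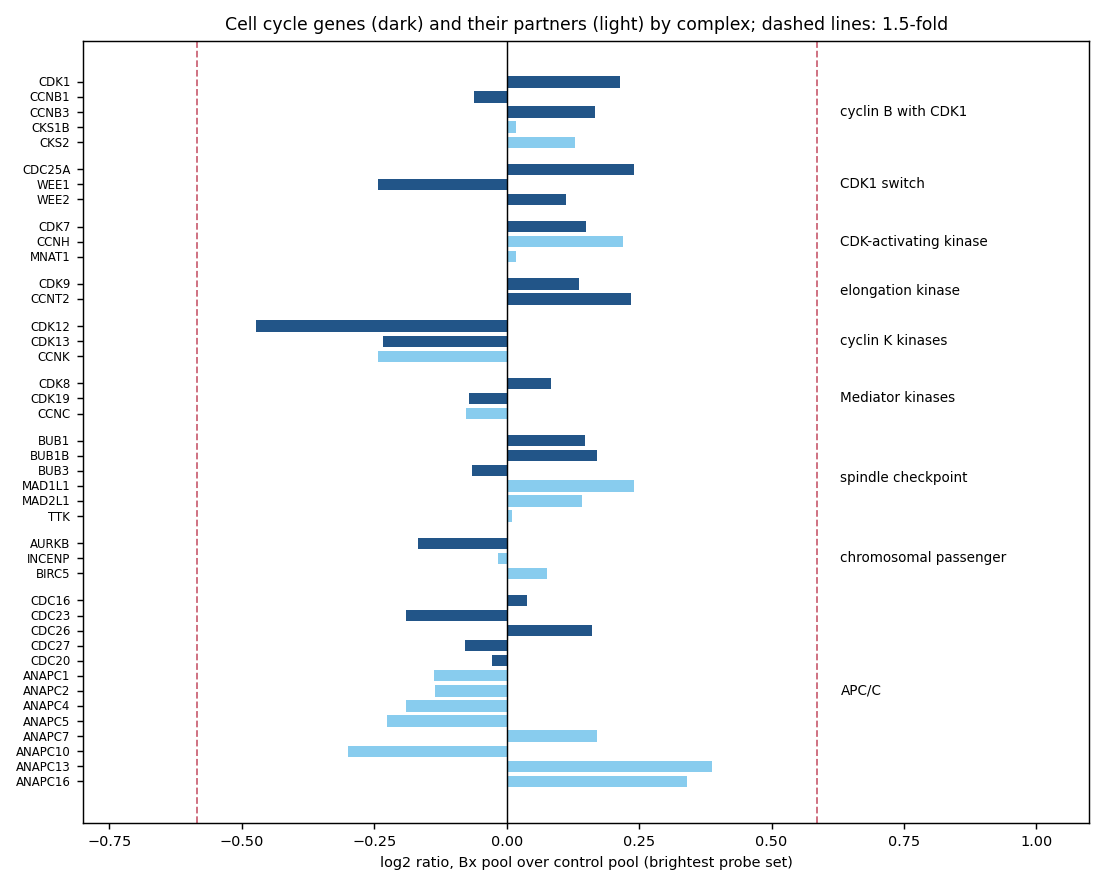
Log2 ratio of the Bx over the control pool on the brightest probe set for cell cycle genes (dark bars) and partner genes of the same complex (light bars), with dashed lines at 1.5-fold. No bar reaches a dashed line. CDK12, CDK13 and CCNK all point to the control side. CDK7 and CCNH point to the Bx side, as does MNAT1, which is close to 0 (0.02). The other sets with 3 or more genes hold bars on both sides. The complexes were put together after the values had been seen.

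The anaphase-promoting complex (APC/C) is the ubiquitin ligase that ends M phase by destroying cyclin B and securin. Its activator CDC20 had 7167 in control and 7034 in Bx discs. Of its subunits, CDC16 had 2261 and 2322, CDC23 2816 and 2469, CDC26 1352 and 1512, and CDC27 2704 and 2559, with log2 ratios between -0.19 and 0.16. CDC20B, a relative of CDC20, had 162 and 182 on one probe set and 62.8 and 44.7 on the other. Of the other subunits and regulators of the complex, 10 were measured. On their brightest probe set 4 were higher and 6 lower, where 52.4% of all genes were higher. None of the 10 was past 1.5-fold, and their median log2 ratio was -0.14. This direction depended on the probe set. The mean over probe sets had the opposite sign for ANAPC1 (0.21), ANAPC4 (0.15) and ANAPC7 (-0.37). ANAPC13 was at 0.39, ANAPC16 at 0.34 and ANAPC10 at -0.30. FZR1, the other activator, had 99.5 and 117, and FBXO43, the inhibitor of the complex in meiotic arrest, 313 and 285.

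The spindle checkpoint delays the APC/C until all chromosomes are attached. BUB1, its kinase at the kinetochore, had 1643 in control and 1820 in Bx discs on its brightest probe set. It had a mean log2 ratio of 0.31 ± 0.22 (SD) over 2 probe sets, while a further probe set had 50.1 in control and 9.28, under the floor, in Bx discs. BUB1B had 3726 and 4195 (log2 ratio 0.17) on its brightest and 143 and 137 on the other. BUB3 had 9388 and 8969 (-0.07). Among the 8 other checkpoint genes, 6 were higher and 2 lower, where 52.4% of all genes were higher. Their median was 0.09, with none of the 8 past 1.5-fold. MAD2L1, which inhibits CDC20, had 11049 and 12195, MAD1L1 was at 0.24 and ZWILCH at -0.26.

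AURKB, aurora kinase B, corrects chromosome attachments as part of the chromosomal passenger complex. AURKB had 15403 in control and 13708 in Bx discs, a log2 ratio of -0.17 on 1 probe set. Its partners INCENP (3141 and 3104) and BIRC5 (3808 and 4012) differed by less than that. AURKAIP1, named for binding aurora A and also a protein of the mitochondrial ribosome in mammals, had 1657 and 1558. The polo-like kinases run spindle assembly and centriole copying. PLK1 had 5579 and 5915 and PLK4, the centriole kinase, 378 and 375. PLK3, a stress-responsive member, was higher on all 4 of its probe sets, with 2510 and 2752 on the brightest and a mean log2 ratio of 0.22 ± 0.12 (SD). PLK2 had 547 and 472 on its brightest probe set but was higher on its other 2, with a mean of 0.17 ± 0.35.

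The NEK kinases, which act at centrosomes and cilia, held the largest ratios on both sides. NEK4 had a signal of 243 in control and 391 in Bx discs, 1.61-fold higher (log2 ratio 0.69), on its brightest probe set. Its other probe set went the opposite way, from 53.3 in the control to 29.8, under the floor, in the Bx pool. NEK5 had 57.7 in control and 36.8 in Bx discs, 1.57-fold lower (-0.65), on its only probe set, and the Bx signal was barely above the floor of 36.4. NEK3, also with 1 probe set, had 224 and 303 (0.43). NEK7, needed for spindle assembly in mammals, had 1566 and 1814 on the brighter of 2 probe sets, which were both higher and averaged a log2 ratio of 0.33 ± 0.17 (SD). NEK8 was lower on its brightest probe set (68.8 and 53.2), while its other probe set was under the floor in control (29.1) and had 104 in Bx discs. NEK1, NEK2, NEK6 and NEK9 were within 1.1-fold on their brightest probe sets, with NEK6 at 2601 and 2540.

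**Figure D4:**
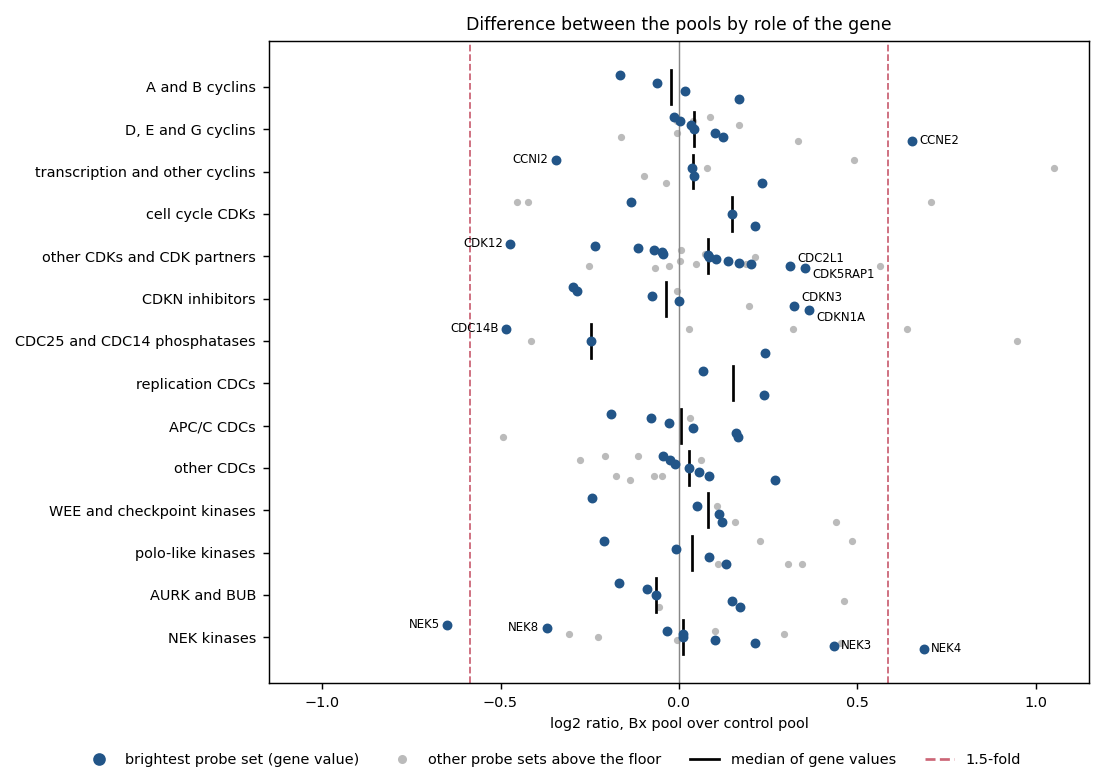
Log2 ratio of the Bx over the control pool by role of the gene, with the gene value from the brightest probe set (dark points), the other probe sets above the floor (grey points) and the median of each group (black bar). CCNE2, NEK4 and NEK5 lie outside the dashed 1.5-fold lines, and grey points often lie on the other side of 0 from the gene value in the same row.

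Of the CDC14 phosphatases, which reverse CDK phosphorylation, CDC14B had 148 in control and 106 in Bx discs (log2 ratio -0.48) on its brightest probe set, but 3 of its 4 probe sets above the floor were higher, for a mean of 0.13 ± 0.48 (SD). CDC14A had 149 and 126 on its brightest, with a mean of 0.10 ± 0.74 over 3. Neither gene had a settled direction. CDC7, the kinase that fires replication origins, had 688 and 812 (0.24) on its brightest probe set. Its other probe set had 61.8 in the control and was under the floor in the Bx pool. CDC45, a part of the replicative helicase, had 4555 and 4769.

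The other genes with a CDC name were placed in none of the roles above. On their brightest probe sets the log2 ratios lay between -0.04 and 0.27. CDC37, the co-chaperone that hands kinases to HSP90, had 166 in control and 199.7 in Bx discs on its brightest probe set and 65.8 and 59.8 on the other. CDC123, an assembly factor of a translation initiation factor in yeast, was lower on all 3 probe sets, with 1686 and 1635 on the brightest and a mean log2 ratio of -0.12 ± 0.08 (SD). CDC34, a ubiquitin-conjugating enzyme, had 1422 and 1449. The splicing factors CDC40 and CDC5L had 1558 and 1619, and 3130 and 3319 on the brightest probe set. Of the 4 probe sets of CDC5L 1 was higher and 3 were lower, with a mean of -0.05 ± 0.11. CDC73, a transcription elongation factor, had 2064 and 2027 on its brightest probe set. Of its 3 probe sets 1 was higher and 2 were lower, with a mean of -0.08 ± 0.18. CDC37L1 had 471 and 467.

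Probe sets of the same gene gave a view of how far a ratio depends on the probe set, though some share sequence. They lie on the same 2 arrays, so error common to a whole array is not in their spread. Of the 78 measured genes, 39 had 2 or more probe sets that passed the floor in both pools. All of them went the same way in 14 genes (35.9%), against 45.5% of the 4870 such genes on the array. Of these 14, 12 were higher and 2 (CDKN1B and CDC123) lower in the Bx pool, where the array's one-way genes were 1241 higher and 975 lower. In 18 of 39 genes the 2 brightest probe sets shared a sign. This count was not made for the whole array, so it is not read as particular to these genes. In 4 of the 39 all probe sets above the floor went one way with a mean absolute log2 ratio of at least 0.3, where 14.8% of such genes on the array did (409 higher and 312 lower). The 4 were CCNE2, CCNL1, NEK7 and BUB1, all higher in the Bx pool, with the CCNL1 mean set by its dimmest probe set. BUB1 and NEK7 were at 0.15 and 0.21 on their brightest probe set, and at 0.46 and 0.45 on the next. A further BUB1 probe set, above the floor in control only, was at least 1.38-fold lower in Bx discs.

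**Figure D5:**
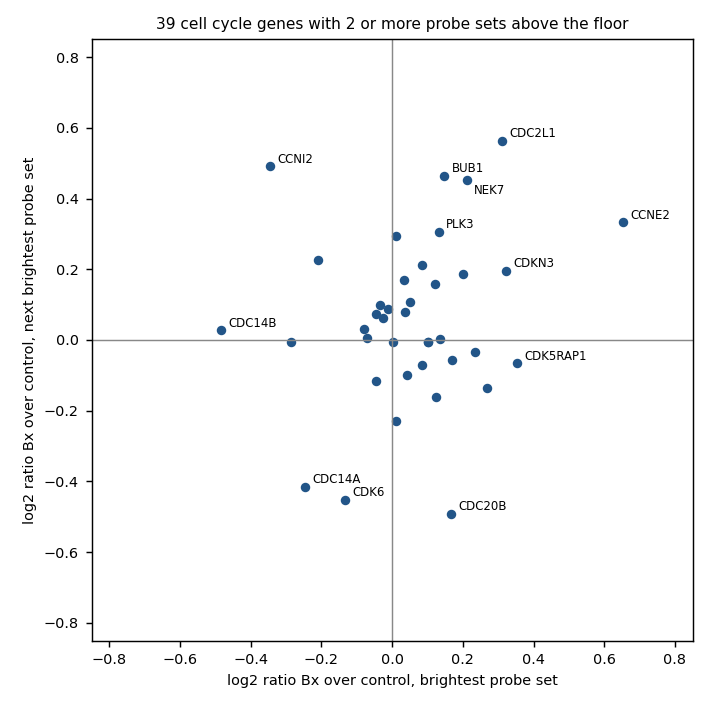
Log2 ratio of the Bx over the control pool on the brightest probe set (x axis) and the next brightest (y axis) for the 39 cell cycle genes with 2 or more measured probe sets. Points lie in all 4 quadrants, with CCNE2 far to the right and above 0, and CCNI2, CDC14B and CDC20B in quadrants of opposite sign.

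Other genes of the same pathway also differed little. Of 78 genes on a list of cyclins with no digit in the name, CDK partners, APC/C, checkpoint, anaphase, G1 to S, meiotic arrest and proliferation genes, 62 were measured. None was past 1.5-fold in either direction, where 7.74% of all genes were, but 41 of the 62 lay in the brighter 2 of the 4 groups, where few genes were. The median log2 ratio was 0.03, with 35 higher and 27 lower, where 52.4% of all genes were higher. The directions within single groups of the list rest on few genes and were not tested. MOS, the kinase that keeps vertebrate eggs in metaphase arrest, had 322 in control and 427 in Bx discs, the highest ratio of the list (0.41). CNTD1, a cyclin-like gene of meiosis in mice, had the lowest, with 73.9 and 50.5 (-0.55). In the G1 to S group, which holds the retinoblastoma and E2F genes, 10 of 13 were higher on their brightest probe set, with a median of 0.10. Of these, RBL1 (-0.09) and E2F6 (-0.06) were lower on the mean over probe sets. RBL2 was at 0.31 and E2F7 at -0.32. Of the proliferation group 7 of 9 were lower on their brightest probe set, with a median of -0.03 and LIN52 at -0.36. Among the 7, TOP2A (-0.008) and FOXM1 (-0.003) were nearly equal in both pools. TOP2A (0.07) and LIN9 (0.18), also of the 7, were higher on the mean over probe sets. PCNA, the replication clamp, had 8355 and 8112, and MKI67, the Ki-67 antigen, 1560 and 1607. The cyclin-CDK partners and the anaphase genes each had medians of 0.02, and the meiotic arrest group 0.08. The cyclins with no digit in the name had a median of -0.08.

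Markers of the cells in the disc were set beside these values. All 7 granulosa markers measured of 7 were lower in the Bx pool on their brightest probe set. Their summed signal was 57172 in control and 50357 in Bx discs, with a median log2 ratio of -0.34. INHA and AMH each had 1 probe set higher and 1 lower, with means of -0.01 ± 0.02 and -0.12 ± 0.32 (SD). FSHR and NR5A2 were lower on both of their probe sets. The 4 oocyte markers on the array were higher, with sums of 2936 and 3273. DAZL made most of that sum (2743 and 3027), and DDX4, GDF9 and BMP15 were dim. Theca and stroma markers summed to 1699 and 1620 over 6 genes, mostly from COL1A2 (1340 and 1364). These sums include COL1A1 (38.0 and 19.5) and ACTA2 (72.9 and 7.02), which did not pass the floor in both pools. The lower sum in Bx discs rests on these unmeasured genes, so it gives no direction for the group. CYP17A1, the androgen-forming enzyme, was 1.87-fold higher and PDGFRA 1.94-fold lower, both at dim signals. Endothelial markers summed to 476 and 539 over 4, all dim, with 3 higher and CDH5 lower (186 and 130). Leukocyte markers summed to 3256 and 2305 over 3 genes. CD74 alone made the lower sum (3182 and 2212), while CSF1R had 65.1 and 67.8 and PTPRC was under the floor in both pools. Erythrocyte markers summed to 623 and 520 over 2 genes on the array. TFRC made the lower sum (490 and 376), while HBAD had 133 and 144. No marker was at 0. The part of the cell mixture in the values of the cell cycle genes was not tested.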

How the data were processed

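Total RNA (100 ng per pool) was labelled by 3' in vitro transcription for an Affymetrix chicken array with 1 colour, per the labels' protocols. The authors deposited a linear signal intensity for each probe set, and the submitters' processing notes name MAS5 as the tool. Its version is not given in the sources used here. Nor is its scaling target, and detection calls were not used here.

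The deposited scaling was kept, and ratios were formed on log2 signals without a pseudocount. The floor came from 746 non-chicken probe sets, and 96 control probe sets were left out. Symbols came from GEO's annotation of the platform, which may be out of date: of 37693 chicken probe sets, 27166 had 1 symbol, 177 several and 10350 none. All 81 gene IDs were found in RefSeq's table for GRCg7b under the same symbol. That build is not the array's, so coordinates are left out.

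With 1 array per group no test was possible, and the number of arrays limits the precision. Differences are given as ratios, beside the share of all measured genes past the same fold and the SD between probe sets of 1 gene. That SD reflects differences between probe sets, also the dimmer ones of a gene. It holds no error common to a whole array and no information on variation among hens. The members, lists and named genes (all past 1.5-fold, the largest ratios and brightest genes of each role, those whose probe sets went one way, and a set of core genes) were chosen with earlier results of these data known, and further members were named after their values were seen. Each gene's role was assigned from its name. Alternatives were median centring, quantile normalization, loess (fraction 0.3), no floor, a stricter floor (75th percentile of chicken probe sets), a pseudocount of 16, the mean over probe sets, no probe sets ending in _x_at or _s_at, symbols without a suffix, and a 2-fold threshold. The calculation was tested on simulated data. A planned description of promoter motifs was not run. Python 3.11.15, pandas 2.3.3 and statsmodels 0.14.6 were used.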

Additional observations from a re-analysis of the deposited data

How the results depend on the processing

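No paired analysis was possible because each group is 1 array. The median log2 ratio of the measured cell cycle genes lay between 0.01 (median centring) and 0.05 (loess) under all alternatives and stayed above 0. With median centring, 42 of the 78 genes (53.8%) had the higher signal in the Bx pool. That setting also moved the median over all genes, from 0.01 to -0.01. The 53.8% is therefore not set against the 52.4% of all genes given above. The 2 genes at least 1.5-fold higher and the 1 lower rest on few, dim values. The count of higher genes was 1 with the mean over probe sets (CCNE2 drops out), where 3.57% of all genes were higher by this fold. It was 1 without _x_at and _s_at probe sets (again without CCNE2), where 4.61% of all genes were. It was 0 with the stricter floor, which leaves 53 genes, where only 0.375% of all genes were past this fold. On the next brightest probe set, an alternative chosen after seeing the data with 39 genes, it was 0 (5.67% of all genes). At 2-fold it was 0 (0.639% of all genes). The count of lower genes was 3 of 81 with no floor (NEK5 with CDK18 and CDKN2B), where 10.3% of all genes were lower by this fold. The count of lower genes was 0 under loess, with the stricter floor and on the next brightest probe set, and NEK5 had no value there. In these settings 3.81%, 0.518% and 5.03% of all genes were lower by this fold. With a pseudocount of 16 the count was also 0, with NEK5 at a log2 ratio of -0.48, against 2.54% of all genes. At 2-fold it was 0 (0.423% of all genes). Of 624 recomputed gene values, 14 moved by more than the SD between probe sets at their brightness, all 14 through the choice of probe set. Many of the 624 could not move. No floor (78 values) and the stricter floor (53 values) change which genes are measured but not their ratios. Median centring shifts all ratios by 1 constant, too small to count as moved (CCNA1 from 0.02 to -0.01). With the mean over probe sets, genes with 1 probe set above the floor keep their value. Without _x_at and _s_at probe sets, genes whose brightest probe set has neither ending keep theirs. On the next brightest probe set 10 of 39 values moved. The 3 genes past 1.5-fold kept their sign in each alternative that gave them a value, but NEK4 and NEK5 have only 1 probe set above the floor and had no value on a next brightest one. Signal over background limits the dim genes, such as NEK5, CDKN2C, CDK14 and NEK8.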

Other observations

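In the second-brightest of the 4 brightness groups, 17 of 20 cell cycle genes had the higher signal in the Bx pool. The brightest group had 17 of 32, the second-dimmest 9 of 16 and the dimmest 4 of 10, against 47.4%, 57.2% and 51.1% of all their genes. With median centring the second-brightest group had 16 of 20, against 48.6% of all its genes. With the mean over probe sets it had 15 of 20, against 57.2%. This split was noticed after the values had been seen, the differences are small, and it was not tested.

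FBXO5, an inhibitor of the anaphase-promoting complex, was under the floor in the control (6.03) and had a signal of 58.1 in the Bx pool, close to the floor. LIN52 was lower on both of its probe sets, with a mean log2 ratio of -1.18 ± 1.16 (SD), of which the brightest had -0.36.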
